A study of Mus musculus with 8 samples.

Results

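Genes of hepatic stellate cells and of the extracellular matrix were compared between the livers of female mice given vehicle or the androgen dihydrotestosterone (DHT) on a western diet (WD). The members were 40 genes listed by symbol, and a row of the table belonged to the set when its Ensembl gene ID mapped to a listed symbol. Of the 40, 39 were among the 14317 mouse genes of the table, all 39 passed the filter on low values, and Timp1 was not analysed here. The study asked how androgen excess changes lipid handling in the liver. Livers of 4 mice from each of its Con-Veh and Con-DHT groups were sequenced, with 1 library of total liver RNA per mouse. Both groups were females labelled WT and carried no Cre. They received an empty pellet (Con-Veh) or a 10 mm DHT pellet (Con-DHT) at 7 weeks of age, ate the WD (rich in palm oil, fructose and cholesterol) for 8.5 weeks and were fasted overnight before the livers were taken.

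Stellate cells lie between hepatocytes and the sinusoidal endothelium, where in their resting state they store vitamin A. In injured liver they can become contractile, matrix-producing myofibroblasts that lay down fibrillar collagen, and growth factors of the PDGF and TGF-beta families are known drivers of that change. The matrix they and other cells build holds fibrillar and basement membrane collagens, glycoproteins, proteoglycans and elastic fibres, is stiffened by crosslinking enzymes of the lysyl oxidase family, and is broken down by metalloproteinases that TIMP proteins inhibit.

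The unit of every value is a normalized read count, the reads on a gene divided by the size factor of its library. Reads on mouse genes numbered between 13123962 and 17815944 per library. In these bulk samples, fewer cells of a type and less RNA per cell cannot be told apart.

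The main result was that most of the set did not pass the test. With limma on log2(value + 1) and Benjamini-Hochberg adjustment over all 14312 genes tested, 2 of 39 members passed an adjusted p of 0.05: Loxl1, a lysyl oxidase that crosslinks elastin and collagen, was 2.73-fold higher in Con-DHT, and Col5a3, the alpha 3 chain of type V collagen, was 1.71-fold lower. Over all genes tested the same rule called 1032, or 7.21%, of which 658 (4.60%) were higher and 374 (2.61%) lower in Con-DHT, so that the members' share of 5.13% was not above the background. An unadjusted p of at most 0.05 was found for 8 members (20.5%), against 23.2% of all genes. The groups did not overlap in 2 members, again Loxl1 and Col5a3, whereas 15.1% of all genes had groups that did not overlap. Of the count tests on the recovered reads, edgeR called 2 members with 7.15% of all genes called, and DESeq2 called 3, adding Timp2, with 11.0% of all genes called. The member median log2 difference (Con-DHT minus Con-Veh) was -0.08, beside -0.01 over all genes.

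The sequence upstream of Col5a3 is shown because it is the called member with a RefSeq promoter entry, and those of Col3a1 and Acta2 because these genes stand for fibrillar collagen and for contractile stellate cells in what follows. Each is the 250 bases before the start of the RefSeq entry in build GRCm38.p6, on the gene's own strand (Col5a3 at chr9:20815068-20815317, minus strand, Col3a1 at chr1:45311288-45311537, plus strand, and Acta2 at chr19:34255374-34255623, minus strand), with matches to 6 motifs in capitals. In the GENCODE M21 annotation Acta2 reaches chr19:34255590, so that most of its window, from 34255374 to 34255590, lies inside the gene.
Col5a3: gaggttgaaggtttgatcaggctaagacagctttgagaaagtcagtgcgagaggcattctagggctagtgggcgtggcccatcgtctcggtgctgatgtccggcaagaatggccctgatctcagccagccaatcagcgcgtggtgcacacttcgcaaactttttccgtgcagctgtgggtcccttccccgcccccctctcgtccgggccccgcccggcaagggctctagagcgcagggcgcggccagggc
Col3a1: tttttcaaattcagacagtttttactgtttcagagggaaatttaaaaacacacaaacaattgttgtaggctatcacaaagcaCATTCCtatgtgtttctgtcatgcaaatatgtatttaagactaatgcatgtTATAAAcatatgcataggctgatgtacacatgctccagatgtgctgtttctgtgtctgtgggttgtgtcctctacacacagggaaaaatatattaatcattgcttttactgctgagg
Acta2: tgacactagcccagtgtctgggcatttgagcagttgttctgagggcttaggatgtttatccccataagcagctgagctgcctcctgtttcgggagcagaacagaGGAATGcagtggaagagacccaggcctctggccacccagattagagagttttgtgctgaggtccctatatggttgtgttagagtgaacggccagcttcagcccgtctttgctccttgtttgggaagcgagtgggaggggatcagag
The motifs, searched on both strands, were the CArG box bound by serum response factor (CC and GG around 6 letters that are each A or T), the SMAD element GTCTAGAC downstream of TGF-beta receptors, the element TGANTCA bound by AP-1 factors such as Fos and Jun, the element GGAATG bound by TEAD factors of the Hippo pathway, the STAT5 element TTCNNNGAA downstream of the growth hormone receptor, and the TATA box, searched as TATAAA. A CArG box can contain the TATA letters, and no other overlap was looked for. The capitals in Acta2 are a TEAD match, those in Col3a1 are a TEAD match on the opposite strand followed by a TATA match, and Col5a3 held none of the 6. RefSeq entries were found for 26 members with 28 promoters. TEAD letters were in 5 of the 28 (Acta2, Col18a1, Col3a1, Col6a2 and Lrat), or 17.9%, beside 12.6% of all 32851 promoters of the same length. TATA letters were in 2 of 28 (12.4% of all promoters), AP-1 letters in 1 (6.75%) and STAT5 letters in 1 (7.02%). The strict CArG box and the SMAD element were in none of the 28, and in 1.47% and 0.167% of all promoters. With 1 of the 6 inner letters of the CArG box allowed to differ, a search added after the sequences were seen, 7 of the 28 held it (25%, beside 7.24% of all promoters), and the Acta2 promoter held it 2 times. These counts describe letters in a window and do not show binding.

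Libraries stood apart from the rest of their groups in these genes. Con-Veh replicate 3 was the highest of the 8 libraries for 22 of 39 members (56.4%), whereas it was the highest for 11.8% of all genes tested. Con-DHT replicate 4 was the highest for 10 members (25.6%, against 15.4% of all genes), so that these 2 libraries held the maximum of 32 of the 39. The lowest values were most often in Con-Veh replicate 2 and Con-DHT replicate 3, each lowest of the 8 for 10 members, beside 10.8% and 9.95% of all genes. In Con-Veh replicate 3, 15 members (38.5%) were above 2 times the median of the other 3 Con-Veh libraries, compared with 2.1% of all genes. The ratio reached 6.33 for Col1a1 and 5.39 for Col3a1, and was 0.42 for Col15a1. The median within-group SD on the log2 scale was 0.57 for members in Con-Veh and 0.29 in Con-DHT, where all genes had 0.19 in each. The Con-Veh SD was the larger one for 30 of 39 members and for 48.3% of all genes. These descriptions were not adjusted for the level of the genes.

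**Figure D1:**
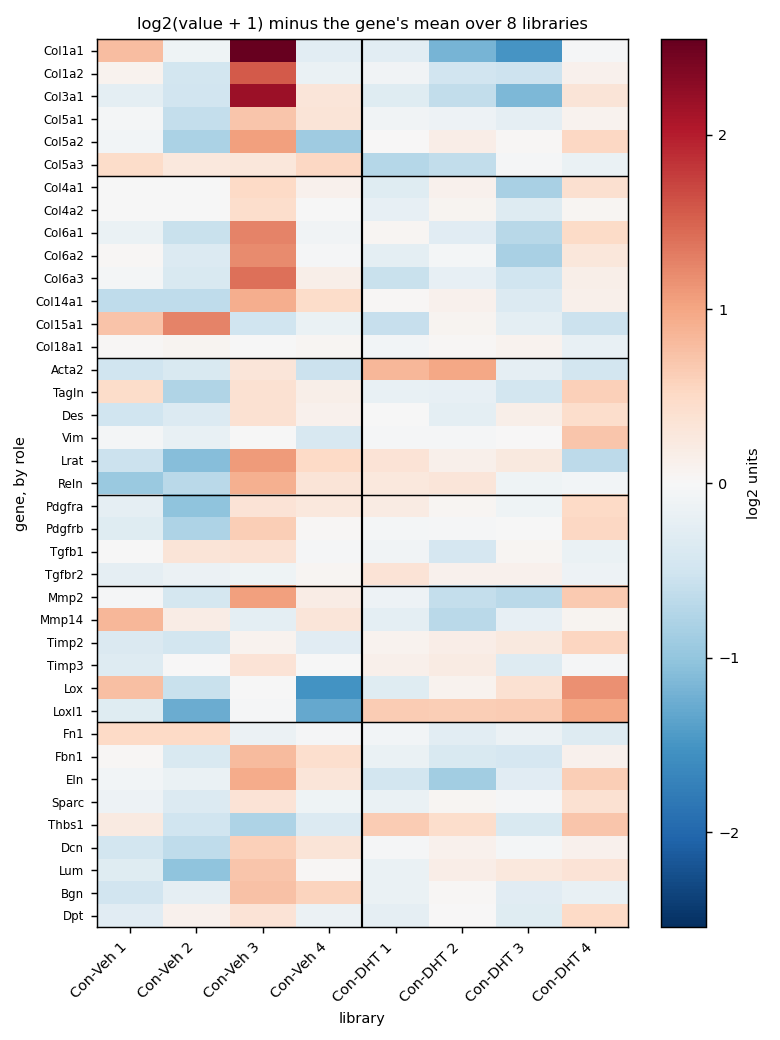
Heat map of log2(normalized read count + 1) minus each gene's mean over the 8 libraries, with the 39 members in rows, grouped by role, and libraries in columns. Con-Veh replicate 3 is red for most collagens (Col1a1 at 689.8, Col3a1 at 1192), and Loxl1 and Col5a3 are the rows whose groups do not overlap.

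Of the 3 measured mesothelial markers, Msln and Upk3b were highest in the same 2 libraries. Msln was 27.95 in Con-Veh replicate 3 and 33.7 in Con-DHT replicate 4, where the other 6 libraries had 1.93 to 8.71. Upk3b was 35.9 and 38.0 in them and 3.48 to 19.4 elsewhere. Gpm6a, the most abundant of the 3, was 23.1, 31.8, 40.9 and 21.8 in Con-Veh and 50.04, 45.5, 46.9 and 81.5 in Con-DHT, so that Con-Veh replicate 3 was the highest of its group and below every Con-DHT library (log2 difference 0.91, adjusted p = 0.066). The summed level of the 3 (of 5 listed) was 105 in Con-Veh replicate 3 and 153 in Con-DHT replicate 4 and between 29.6 and 73.5 in the others, with Wt1 and Krt14 not analysed here. No gene of the list was called by limma in the main fit or by edgeR, while DESeq2 called Gpm6a (adjusted p = 0.027). With totals set equal after leaving out the Mup genes, limma called 1 of the 3 higher. The 4 adipocyte markers summed to 1821 in Con-DHT replicate 4, with Cidec the most abundant, and to between 461 and 871 in the other libraries, with no gene called. Cidec alone was 1329 in Con-DHT replicate 4 and 272 to 575 elsewhere. Adipoq was 289 in that library and 114 to 228 elsewhere, a smaller excess. The part of these markers in the results was not tested. Without Con-Veh replicate 3, 3 of 39 members were called (Loxl1, Col5a3 and Timp2), beside 821 of all 14312 genes tested. In that fit 21 members lay above 0 and 18 below, against 16 and 23 with all libraries. The member median moved from -0.08 to 0.10 without that replicate, and 5 members changed sign. Without both Con-Veh replicate 3 and Con-DHT replicate 4, a comparison added after the data were seen, 4 of 39 members were called, beside 645 of all 14312 genes tested. Loxl1 and Timp2 were higher and Col5a3 and Mmp14 lower.

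Among the fibrillar collagens, which form the stiff fibres of scar, Col5a3 was the only one of 6 called. The Con-Veh libraries had 289, 254, 255 and 300.3 normalized reads of Col5a3, and the Con-DHT libraries 127, 135, 206 and 187. Every Con-DHT library was below every Con-Veh library. The log2 difference was -0.77 (95% interval -1.13 to -0.41, adjusted p = 0.019). The exact permutation p of 4 against 4 was 0.029, the smallest this design can give, and restates that the groups did not overlap. Col5a3 (ENSMUSG00000004098) lies at chr9:20770050-20815067 on the minus strand in the GENCODE M21 annotation of GRCm38, and no exon of another annotated gene overlaps its exons. Its call was lost without Con-Veh replicate 4 (adjusted p = 0.059), without Con-DHT replicate 2 (adjusted p = 0.052) and with scaling by the spike-ins (log2 difference -0.57, adjusted p = 0.54).

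Col3a1, type III collagen, had the highest mean of the group. Its values were 221, 188, 1192 and 325 in Con-Veh and 214, 169, 119 and 332 in Con-DHT. Con-Veh replicate 3 was far above the rest, and the other libraries of the groups overlapped. The log2 difference of -0.87 (interval -2.03 to 0.30) did not pass (adjusted p = 0.36) and was -0.29 without Con-Veh replicate 3. Col1a1 and Col1a2, which encode the chains of type I collagen, are given although they were chosen after their values were seen. Col1a1 was 203, 109, 689.8 and 97.5 in Con-Veh and 97.1, 51.3, 40.8 and 115 in Con-DHT. The log2 difference was -1.48 (interval -2.76 to -0.21, adjusted p = 0.15), the most negative of all members, and it was -0.88 without Con-Veh replicate 3 (adjusted p = 0.22). Col1a1 passed in 1 of 14 alternative settings, the scaling by spike-ins (log2 difference -1.29). Col1a2 was 274, 184, 761 and 227 in Con-Veh and 240.4, 182, 178 and 276 in Con-DHT. Its log2 difference was -0.50 with all libraries and -0.07 without Con-Veh replicate 3. The type V chains other than Col5a3 were not called, with log2 differences of -0.19 (Col5a1) and 0.37 (Col5a2). Without Con-Veh replicate 3 these were 0.02 and 0.78. Type V collagen chains join the type I fibre and regulate its diameter.

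**Figure D2:**
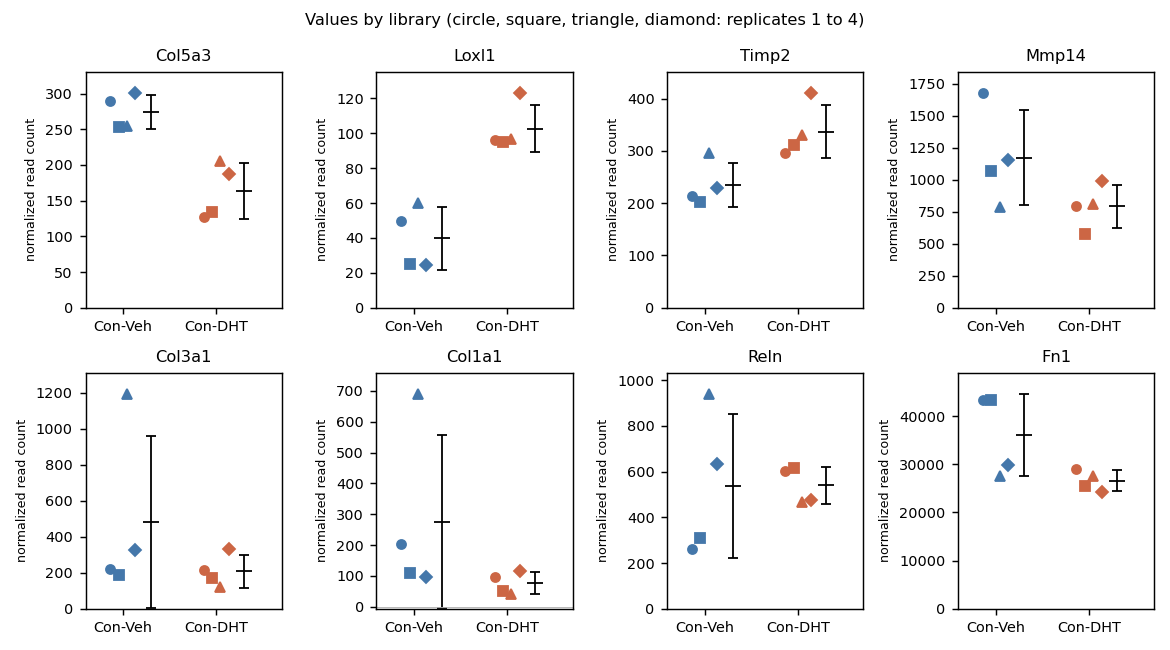
Normalized read counts (y axis) of 8 members in the 4 Con-Veh (blue) and 4 Con-DHT (orange) libraries, with each replicate number given its own symbol and the mean and SD of the group in black beside the points. Col5a3 and Loxl1 do not overlap between groups, and in Col3a1 and Col1a1 a single Con-Veh library, replicate 3, lies at 1192 and 689.8.

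The 8 network-forming and fibril-associated collagens all had log2 differences below 0, from -0.65 (Col15a1) to -0.04 (Col14a1), with a median of -0.26 and none called. When totals were set equal after leaving out the abundant Mup genes, and with scaling by spike-ins, 2 of the 8 were above 0. Col18a1, whose product sits in basement membranes and releases endostatin, had the highest mean. Its values were 20603, 21165, 19836 and 20794 in Con-Veh and 19013, 20527, 21324.5 and 17483 in Con-DHT. The groups overlapped and the log2 difference was -0.08 (interval -0.29 to 0.14, adjusted p = 0.69), with the opposite sign under those same 2 scalings (0.02 and 0.12). Col4a1 and Col4a2, the main chains of the basement membrane network, differed by -0.31 and -0.21. The type VI chains Col6a1, Col6a2 and Col6a3, which form beaded filaments around cells, differed by -0.22, -0.42 and -0.56, and each was highest in Con-Veh replicate 3. Without that library Col6a1 (0.16) and Col14a1 (0.26) were above 0. Col6a2 and Col6a3 were then at -0.09 and -0.18, Col4a1 and Col4a2 at -0.18 and -0.09, Col18a1 at -0.09 and Col15a1 at -0.93. Col15a1, a collagen of basement membrane zones, was lowest in replicate 3 among the Con-Veh libraries, at 168, 245.1, 70.9 and 89.6, and was at 67.7, 106, 85.7 and 69.6 in Con-DHT. Its adjusted p was 0.30.

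The stellate and contractile markers held 6 genes and none was called. Reln, a secreted glycoprotein used to mark stellate cells, had the highest mean of them. Its values were 261, 309, 937 and 633 in Con-Veh and 603, 616, 466 and 474 in Con-DHT. Con-Veh replicates 1 and 2 were below all Con-DHT libraries and replicates 3 and 4 above them, and the log2 difference was 0.20 (interval -0.58 to 0.97, adjusted p = 0.79). Lrat, the enzyme that esterifies retinol for storage, was likewise higher in Con-Veh replicates 3 and 4 than in 1 and 2, with 80.2, 55.0, 250 and 168 in Con-Veh and 151, 129, 140 and 73.9 in Con-DHT, and a log2 difference of 0.03 (interval -0.92 to 0.98). The sign of Lrat and Reln turned in some alternatives, so that no direction is given for either. Acta2, smooth muscle actin and the usual mark of an activated stellate cell, was 28.6, 30.9, 50.9 and 27.8 in Con-Veh. In Con-DHT it was 74.6 and 82.3 in replicates 1 and 2 and 34.7 and 29.3 in replicates 3 and 4. The groups overlapped and the log2 difference was 0.57 (interval -0.22 to 1.35, adjusted p = 0.38). Des (0.17), Vim (0.32) and Tagln (-0.13), encoding desmin, vimentin and transgelin, were not called, and were at 0.33, 0.38 and -0.02 without Con-Veh replicate 3. Of the exon bases of Tagln, 67.9% are shared with another annotated gene, so that its count is uncertain.

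The wider list of 15 stellate cell markers, 3 of them members, was measured in full, so that the labelled cell type had its markers in these livers. None of the 15 was called and their median log2 difference was 0.07, with 9 of 15 above 0. The median was 0.17 with equal totals without Mup and 0.27 with spike-in scaling, where all genes had 0.09 and 0.19. With both Con-Veh replicate 3 and Con-DHT replicate 4 left out it was 0.24, and 14 of the 15 lay above 0, again with none called. Summed over the list, with Rgs5 the most abundant, the levels were 2502, 2115, 5250 and 4326 in Con-Veh and 3376, 3904, 2844 and 2944 in Con-DHT. Con-Veh replicates 3 and 4 were above every Con-DHT library and replicates 1 and 2 below every one of them. Con-Veh replicate 3 was the highest of the 8 libraries in 9 of the 15 and Con-Veh replicate 2 the lowest in 10. Whether the amount of stellate RNA sampled bears on the collagen values was not tested.

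Of the growth factor genes none of 4 was called. Tgfbr2, the receptor that binds TGF-beta first, had the highest mean, with 279, 294, 300.5 and 335 in Con-Veh and 417, 349, 352 and 297 in Con-DHT. All but replicate 4 of Con-DHT lay above all of Con-Veh, and the log2 difference was 0.22 (interval -0.03 to 0.47, adjusted p = 0.27). Tgfb1, the ligand, had a log2 difference of -0.32 (interval -0.64 to -0.01, adjusted p = 0.21). The PDGF receptors Pdgfra and Pdgfrb, which drive stellate cell division and migration, differed by 0.32 and 0.22 with adjusted p values of 0.54 and 0.68. Without Con-Veh replicate 3 they differed by 0.49 and 0.47, again without passing.

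The remodelling enzymes held the other called member. Loxl1 was 49.5, 25.1, 59.9 and 24.4 in Con-Veh and 96.1, 94.8, 97.0 and 123 in Con-DHT. The lowest Con-DHT library was above the highest Con-Veh library, and 3 of the 4 Con-DHT values lay within 94.8 to 97.0. The log2 difference was 1.45 (interval 0.81 to 2.08, adjusted p = 0.014). The exact permutation p of 0.029 restates that the groups did not overlap. Loxl1 passed in all 14 alternative settings and in all 8 leave-one-out repeats, with log2 differences of 1.26 to 1.68. Loxl1 (ENSMUSG00000032334) lies at chr9:58287738-58313186 on the minus strand in the same annotation, and its exons overlap those of no other gene. Its relative Lox was not called (log2 difference 0.67, interval -0.38 to 1.71), with Con-Veh values from 9.57 to 50.6 and Con-DHT values from 23.5 to 66.3.

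Timp2, an inhibitor of metalloproteinases that also takes part in activating MMP2, came close to the threshold and was chosen after its values were seen. It was 214, 202, 296 and 228 in Con-Veh and 295, 312, 329.7 and 409.8 in Con-DHT. The groups overlapped by 1 value, Con-Veh replicate 3, which was just above the lowest Con-DHT library. The log2 difference was 0.52 (interval 0.21 to 0.83, adjusted p = 0.054). It passed in 4 of 14 alternative settings, among them DESeq2 (adjusted p = 0.019) but not edgeR (adjusted p = 0.058), and without Con-Veh replicate 3 (adjusted p = 0.021). Timp3 differed by -0.004. Mmp14, the membrane-anchored collagenase that activates MMP2, had the highest mean of the group, at 1673, 1070.3, 785 and 1152 in Con-Veh and 792, 578, 809 and 988 in Con-DHT. Con-Veh replicate 3 was inside the Con-DHT range, and the log2 difference was -0.54 (interval -1.02 to -0.05, adjusted p = 0.17). With both Con-Veh replicate 3 and Con-DHT replicate 4 left out it was -0.83 (adjusted p = 0.049). Mmp2, a gelatinase, differed by -0.38 with an adjusted p of 0.59, and by -0.09 without Con-Veh replicate 3.

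**Figure D3:**
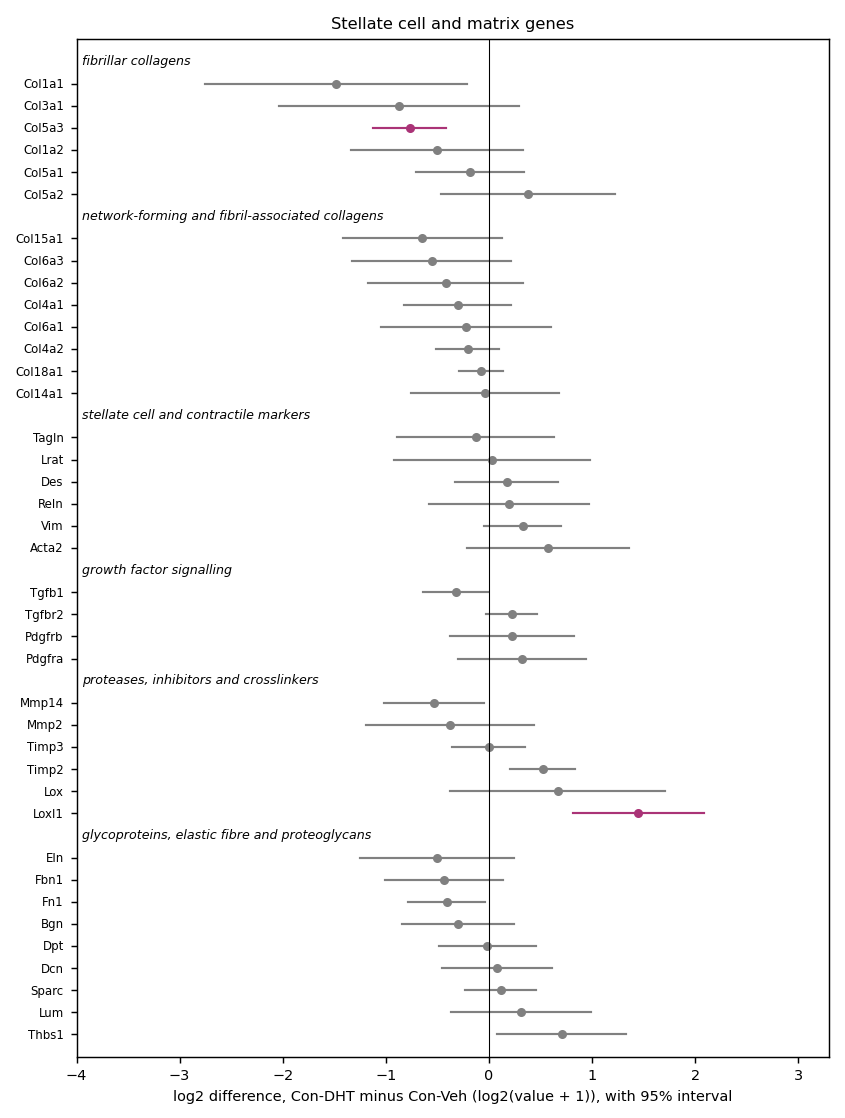
Log2 difference between Con-DHT and Con-Veh (x axis, Con-DHT minus Con-Veh) of the 39 members, with 95% intervals from limma, ordered within role groups. The 2 members in colour, Col5a3 at -0.77 and Loxl1 at 1.45, passed an adjusted p of 0.05, and the intervals of most collagens span 0.

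Of the 9 glycoprotein, elastic fibre and proteoglycan genes none was called. Fn1, fibronectin, which hepatocytes also secrete into plasma, had the highest mean. Its values were 43374, 43356, 27620.1 and 29871 in Con-Veh and 29077, 25499, 27571 and 24331 in Con-DHT. Con-Veh replicates 1 and 2 were above all other libraries while replicates 3 and 4 lay in or just above the Con-DHT range, and the log2 difference was -0.41 (interval -0.78 to -0.04, adjusted p = 0.17). Thbs1, thrombospondin 1, which can activate latent TGF-beta, differed by 0.70 (interval 0.08 to 1.33, adjusted p = 0.17) and passed in the fit without Con-DHT replicate 3. Fbn1 and Eln, the fibrillin and elastin of elastic fibres, differed by -0.44 and -0.51. The small proteoglycans Dcn, Lum and Bgn, which bind collagen fibrils, differed by 0.08, 0.31 and -0.30, and each was highest in Con-Veh replicate 3. Sparc, a collagen-binding glycoprotein, differed by 0.11 and Dpt, dermatopontin, by -0.02. Without Con-Veh replicate 3, Dcn, Lum and Bgn were at 0.29, 0.59 and -0.10. Fbn1 and Eln were then at -0.24 and -0.28, and Sparc and Dpt at 0.25 and 0.10.

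Levels between genes were compared per kilobase of exon. Fn1 and Col18a1 were far above the other members, at means of 3086 and 2934 normalized reads per kilobase in Con-Veh and 2278 and 2790 in Con-DHT. Sparc (266 in Con-Veh), Mmp14 (196), Dcn (189) and Bgn (161) came next. Loxl1 rose from 12.0 to 31.1 normalized reads per kilobase and Col5a3 fell from 40.3 to 24.0, while Col1a1 was at 41.9 and 11.6 without passing the test. At the low end Fbn1, Col5a2 and Lox had 4.89, 5.53 and 5.67 in Con-Veh.

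The wider matrix genes came from 7 further lists, in which the share of genes called ran from 0% to 23.8%, beside 7.21% of all genes tested (4.60% higher and 2.61% lower). The lists' differences from that background were not tested. Of 27 collagen synthesis and processing enzymes 5 (18.5%) were called. P4ha1, a catalytic subunit of prolyl 4-hydroxylase, fell by 1.08 on the log2 scale, from 491 ± 147 to 232 ± 67.9 (mean ± SD, n = 4 each). P4ha3, another subunit of that enzyme family, was at 5.13 ± 1.60 in Con-Veh and 23.7 ± 5.60 in Con-DHT, a log2 difference of 2.02. The Con-Veh mean of P4ha3 was under the minimum of 10, so that it was tested only through its Con-DHT level, and its call adds no support to the list's count, which is 4 of 26 without it. The deposited features all had 81 or more reads in sum, so that the repeat without the filter leaves this as it is. Both sets of 4 libraries were apart in each of these genes. Fkbp10, a chaperone of procollagen, was also higher (log2 difference 1.03), as was P3h4 (0.93), a partner of lysyl hydroxylase. Tgm2, a transglutaminase that crosslinks matrix proteins, was lower (-0.45), and 21.8% of its exon bases are shared with other genes. The list's median was 0.003.

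Laminins and basement membrane genes had 4 calls of 18 measured (22.2%, beside 4.60% of all genes called higher), all higher in Con-DHT, and a median log2 difference of 0.39. Laminins are trimers of an alpha, a beta and a gamma chain that polymerize in basement membranes. Lama3 was 13.2, 10.6, 7.99 and 8.70 in Con-Veh and 92.2, 46.5, 34.7 and 66.3 in Con-DHT, a log2 difference of 2.38 (interval 1.69 to 3.08, adjusted p = 0.0017). Lamb1 was 147, 95.5, 187 and 129.7 in Con-Veh and 268, 277, 235 and 337 in Con-DHT, a difference of 1.02. No Con-Veh library reached the lowest Con-DHT library in either gene. Lama5 (0.73) and Lamc1 (0.44) were called too. Of the 18 genes 4 lay below 0, among them Lamc3, a gamma chain, at -0.58 with groups that did not overlap (adjusted p = 0.072 in limma and 0.040 in DESeq2), which was chosen after its values were seen.

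Matrix receptors had 5 calls of 21 measured (23.8%, against 7.21% of all genes), 2 higher and 3 lower. That split depended on the scaling, with 5 higher and 1 lower at equal totals without Mup and 1 higher and 0 lower with spike-ins. Ddr2, a receptor tyrosine kinase for fibrillar collagen, was 82.4, 62.7, 108 and 86.2 in Con-Veh and 191, 203, 150.03 and 209 in Con-DHT. The lowest Con-DHT library was above the highest Con-Veh library, and the log2 difference was 1.16 (interval 0.77 to 1.54, adjusted p = 0.0039). Itgb8, an integrin subunit that binds latent TGF-beta, was higher by 0.88. The heparan sulfate proteoglycans Sdc1, Sdc4 and Sdc3 were lower, with log2 differences of -0.63, -0.59 and -0.45, and Sdc1 went from 6093 ± 586 to 3935 ± 397 (mean ± SD, n = 4 each).

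Of 22 actin contractility genes 3 were called (13.6%, beside 4.60% of all genes called higher), all higher: Myh10, a nonmuscle myosin heavy chain (0.81), Vcl, vinculin (0.65), and Tpm4, a tropomyosin (0.50). Myh10 was 312, 309.8, 295 and 394 in Con-Veh and 550.4, 575, 553 and 607 in Con-DHT, with an adjusted p of 0.0013. Of the exon bases of Vcl, 25.5% are shared with another gene. Among 29 other matrix proteins 5 (17.2%) were called: Col27a1, a fibrillar collagen of cartilage (1.21), Thbs3 (1.09), Col12a1, a fibril-associated collagen (0.91), and Sparcl1 (0.78) were higher, and Smoc1, a BMP antagonist, was lower (-0.48). Col27a1 was 186, 333, 329 and 307 in Con-Veh and 774, 943, 539 and 459.8 in Con-DHT. The TGF-beta and PDGF signalling list had no calls among 26 genes in limma, with 3 at an unadjusted p of at most 0.05, and the 19 matrix proteases and inhibitors none, with 4 at that level. The signalling list had no call in edgeR or DESeq2 either, and the proteases had 1 in edgeR and 3 in DESeq2. In limma, 1 of the proteases and inhibitors was called higher with quantile normalization, with equal totals without Mup and with spike-in scaling. P3h4, Sdc3, Col12a1 and Sparcl1 are outside the rule for naming genes and were chosen after their values were seen.

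**Figure D4:**
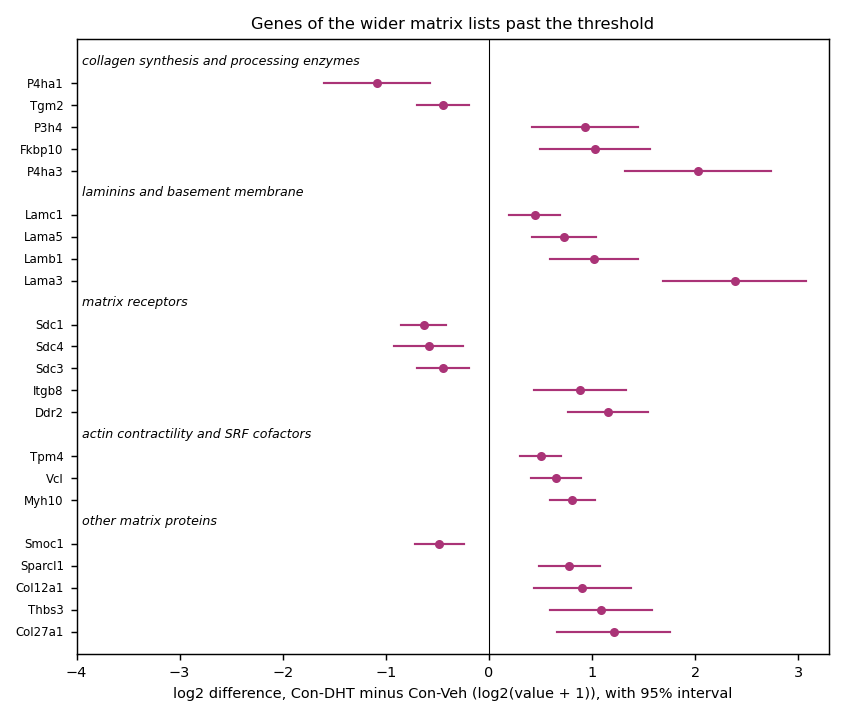
Log2 difference between Con-DHT and Con-Veh (x axis, with 95% intervals from limma) of the 22 genes of the wider matrix lists that passed an adjusted p of 0.05. Laminin and actin genes lie above 0 (Lama3 at 2.38), syndecans below 0 (Sdc1 at -0.63), and the collagen-processing enzymes on both sides.

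With P4ha3 left aside for the reason given, 21 genes of these lists were called. Of the 21, 10 passed in all 8 leave-one-out repeats: Lama3, Lama5, Lamb1, Ddr2, Sdc1, Myh10, Vcl, Tpm4, Thbs3 and Sparcl1. Col27a1 lost its call without Con-DHT replicate 1 and P4ha1 without Con-DHT replicate 1 or 4. The other 9 lost theirs in 4 or more of the 8. Of these, P3h4 and Sdc3 passed in 1 of the 8, and Tgm2, Fkbp10, Lamc1 and Sdc4 in 2. Smoc1 and Col12a1 passed in 3 and Itgb8 in 4. Sdc3 passed in 7 of 14 alternative settings and Tgm2 in 9. With spike-in scaling 9 of the 21 passed. That scaling moved the median of all genes from -0.01 to 0.19. Among the genes that did not pass, the log2 differences were then 0.85 (Vcl), 0.70 (Tpm4), -0.88 (P4ha1), -0.43 (Sdc1), -0.39 (Sdc4) and -0.25 (Sdc3). Without both Con-Veh replicate 3 and Con-DHT replicate 4, 645 of all genes tested passed, against 1032 with all libraries, and fewer genes of these lists passed too. Those that passed were P4ha3 in the first, Lama3, Lamb1 and Lamc1 among laminins, Ddr2 and Sdc1 among receptors, Myh10 and Vcl among actin genes, Col12a1, Col27a1 and Sparcl1 among the other matrix proteins, and Ccn2, connective tissue growth factor, lower in the signalling list. Ccn2 was chosen after its values were seen, and 23.2% of its exon bases are shared with another gene.

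Markers of other liver cells were compared in the same way, where 2.61% of all genes tested were called lower. Of 8 Kupffer cell and macrophage markers 4 (50%) were lower (Cd5l at -0.86, Cd68 at -0.61, Vsig4 at -0.57 and Clec4f at -0.40), with Cd5l the most abundant, and the list summed to 7626, 8043, 6513 and 7576 in Con-Veh and 6014, 4395, 4958 and 4518 in Con-DHT. None of these 4 passed with spike-in scaling, where all 8 stayed below 0 (median -0.38, beside 0.19 for all genes) and Cd5l was at -0.66. Clec4f passed in 2 of the 8 leave-one-out repeats. Of 8 sinusoidal endothelial markers 2 (25%, beside the 2.61% of all genes), Lyve1 (-1.26) and Stab2 (-0.55), were lower. Lyve1 was called in 2 of those 8 and in 12 of 14 alternative settings, and Stab2 lost its call without Con-Veh replicate 4, without Con-DHT replicate 1 and with spike-in scaling (log2 difference -0.35, adjusted p = 0.88). The sums were 4631 to 5239 in Con-Veh and 3489.7 to 4304.5 in Con-DHT, and Stab2 was the most abundant. Both sums had groups that did not overlap, and their part in the fall of Col5a3 was not tested. Of 6 measured portal fibroblast markers (8 listed) Gas6, the most abundant, was lower (-0.88), and no other gene of the list was called. Gas6 was called in 2 of the 8 repeats and in 9 of 14 alternative settings, and among those that lost the call were spike-in scaling and equal totals without Mup. The list summed to 1684 to 3453 in Con-Veh and 1142 to 1408 in Con-DHT, with Con-Veh replicate 2 the highest and no overlap. That sum was mostly Gas6, whose group means were 1920 (Con-Veh) and 989 (Con-DHT), beside 2185 and 1269 for the list. The gap therefore largely restates Gas6 and does not show lower portal fibroblast markers as a set. By gene, 3 lay above 0 and 3 below, with a median log2 difference of 0.03. The 4 measured vascular smooth muscle markers, 2 of them members, summed to 100.1 to 135 in Con-Veh and 85.7 to 187 in Con-DHT, with Myh11 the most abundant and none called. Cholangiocyte markers (5 measured of 6, Spp1 the most abundant) summed to 881 to 1049 in Con-Veh and 856 to 1174 in Con-DHT, with none called. Lymphocyte markers were measured in Cd79b alone, at 13.0 to 23.1 in Con-Veh and 4.84 to 15.2 in Con-DHT, not called. The 6 neutrophil markers were not analysed here. Red blood cell markers (5, Hba-a1 the most abundant) summed to 4669.8 to 11538 in Con-Veh and 4336.5 to 8676 in Con-DHT, and the 8 hepatocyte markers, Alb the most abundant, to between 877199 and 1664228 over the 8 libraries. The red blood cell list was split, with the 4 globin genes at log2 differences of -0.76 to -0.57 and Alas2 at 0.81. Neither list had a call in the main limma fit or in edgeR. DESeq2 called 1 gene in each, Alas2 (adjusted p = 0.018) and the hepatocyte marker Apob (adjusted p = 0.047). With spike-in scaling limma called 1 of the red blood cell markers higher.

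**Figure D5:**
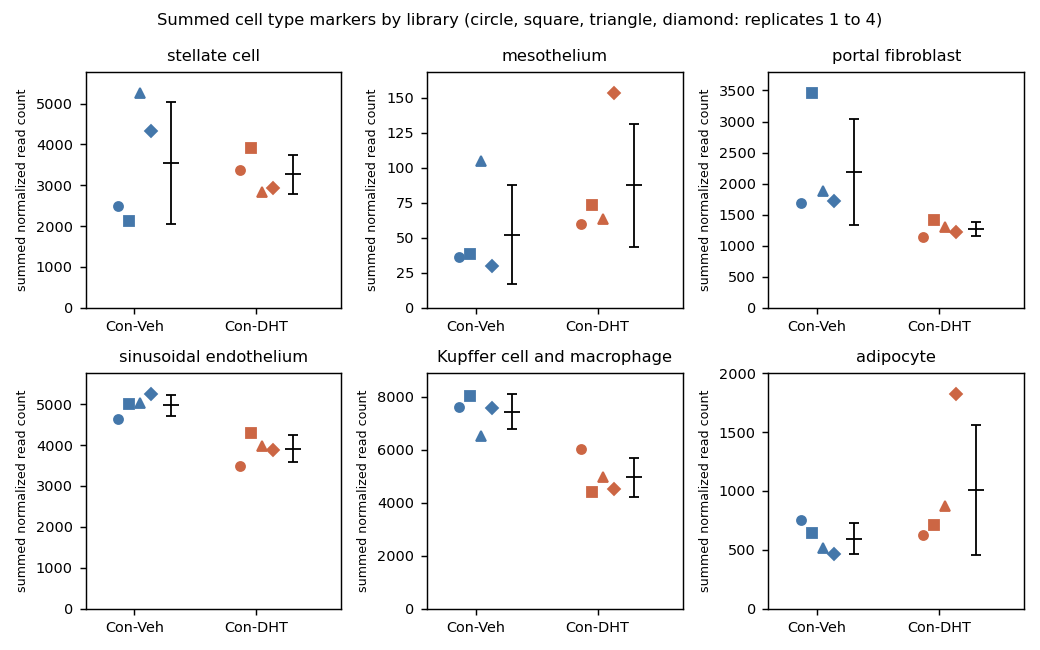
Summed normalized read counts (y axis) of 6 marker lists in the 4 Con-Veh (blue) and 4 Con-DHT (orange) libraries, with a symbol per replicate number and the mean and SD in black. The stellate sum puts Con-Veh replicates 3 (5250) and 4 (4326) above and replicates 1 and 2 below all of Con-DHT, the mesothelial sum peaks in Con-Veh replicate 3 and Con-DHT replicate 4, and the endothelial and Kupffer sums are lower in Con-DHT.

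The scale of the libraries was looked at with the spike-in RNA that had been added before library preparation. Spike-ins took 2.77 ± 0.80% of reads in Con-Veh and 2.49 ± 0.26% in Con-DHT (mean ± SD, n = 4 each), a difference within the spread of the libraries (exact two-sided permutation p = 0.51). Scaling by the spike-ins moved the calls over all genes from 658 higher and 374 lower to 562 and 75. With totals set equal after leaving out the Mup genes they were 1082 and 208, and after correction for length and GC content 582 and 556. The members' median was 0.12 under spike-in scaling, below the 0.19 of all genes, and 0.02 with equal totals, where all genes had 0.09.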

How the data were processed

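RNA of 8 livers (4 Con-Veh, 4 Con-DHT, 1 library each) was sequenced. The authors trimmed reads with Trimmomatic, aligned them with STAR, counted unique exon reads with featureCounts and deposited a normalized signal, the counts divided by a DESeq2 size factor; the submitters' processing notes name GRCm39. The kit is not stated to keep strand. Whole reads were recovered from every library (100% of values within 0.1 of a whole number) and no column was unused. The 14312 mouse genes whose mean was 10 or more were tested with limma 3.58.1 in R 4.3.3 on log2(value + 1), with eBayes trend and a Benjamini-Hochberg threshold of 0.05, and edgeR 4.0.16 and DESeq2 1.42.0 were run on recovered reads. Fold changes on this scale understate changes of low genes. A part of the genotype is not reported here. The code was tested on simulated counts. A first test on a single draw fell short of its recovery cutoff with another random seed and was replaced, after that was seen, by 10 pooled draws with other criteria, in which limma and edgeR gave a share of false calls near the threshold and DESeq2 a share above it. DESeq2's share was not among those criteria. Gene IDs were matched to symbols for 14287 of 14317 mouse genes, and positions and lengths came from GENCODE M21 (GRCm38) by gene ID. The 12 within-group pairs of libraries differed by more than sampling noise (chi-square per degree of freedom 19.2 to 61.7). The labels do not say more of the samples than 1 liver each, so p-values measure the spread between these samples.

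Values in every library were given for members called, members whose groups do not overlap and the highest-mean member of each role group. From each other list, every called gene was named if at most 4, otherwise the 2 largest increases and 2 largest decreases. The members, lists and motifs were chosen with earlier results of these data known. Alternatives were other pseudocounts, filters and scalings, limma without trend or with array weights, a replicate block, edgeR, DESeq2, a length and GC correction and leaving out each library in turn. Intervals are 95%.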

Additional observations from a re-analysis of the deposited data

Results flagged for a closer look

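In a group of 4, a library was singled out when its gap to the nearest other, divided by the range, exceeded Dixon's 95% critical value. Chance singles out about 1 in 20 groups; here 9 of 80 groups of members and spike-in shares were, beside 5.39% of the groups of all genes. The highest of 4 was Con-Veh replicate 3 in 6 of them: Col1a2 at 761, Col3a1 at 1192, Col4a2 at 397, Col6a1 at 306, Col6a2 at 161 and Acta2 at 50.9. Con-DHT replicate 4 was the highest in the other 3: Vim at 835, Pdgfrb at 153 and Loxl1 at 123. These are the libraries with the highest mesothelial marker sums, and the part of those markers was not tested.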

How the results depend on the processing

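The direction of Loxl1 and Col5a3 was kept in all alternatives, and the number of members called stayed between 1 and 3 when 1 library was left out; it was 4 with both Con-Veh replicate 3 and Con-DHT replicate 4 left out, which was chosen after seeing the data. The number of all genes called was 633 to 905 when 1 library was left out, 645 with both left out, 648 with a mean of at least 50, 637 with spike-in scaling and 1569 with DESeq2. With a replicate block, 2 members and 700 genes were called; same-numbered libraries did not deviate together (correlations -0.186 to -0.006), no library correlated best with its own number, and the numbers were not taken to pair animals. Col18a1 turned positive with equal totals without Mup (0.022) and with spike-in scaling (0.12). Reln turned negative after the length and GC correction (-0.0088) and ranged from -0.085 to 0.53 when 1 library was left out. Lrat turned negative with edgeR (-0.16) and DESeq2 (-0.16) and ranged from -0.33 to 0.39 when 1 library was left out. The difference in spike-in share ran from -0.64 to 0.0033 percentage points when 1 library was left out. Where an alternative changed a result, the cause was not tested. Of the members, 5 changed sign without Con-Veh replicate 3. With 4 libraries per group the 95% interval of Col1a1 ran from -2.76 to -0.21, where its log2 SD was 1.29 in Con-Veh and 0.71 in Con-DHT.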
